A study of Homo sapiens with 2 samples.

Results

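The integrated stress response converges on the transcription factor ATF4 and its partner and target DDIT3, better known as CHOP. Here 10 genes of this core were read out of 63677 rows of a gene count table: the transcription factors ATF4, ATF5, DDIT3, CEBPB and CEBPG, the feedback regulators PPP1R15A and TRIB3, and the effectors DDIT4, SESN2 and CHAC1. They were chosen by name and matched to their rows through Ensembl identifiers, and all 10 were found. The table holds 2 libraries of HGC-27, a human gastric carcinoma cell line, collected 48 hours after transfection with INTERFERin, a transfection reagent. The control culture received the empty plasmid pcDNA3.1 and the other culture received pcDNA3.1 carrying the long non-coding RNA lncPSCA. Both cultures were therefore exposed to plasmid and reagent, and no untransfected culture was analysed here. The comparison asks how transcript levels differ when lncPSCA is overexpressed.

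In the integrated stress response, kinases that sense misfolded protein in the endoplasmic reticulum, amino acid shortage, double-stranded RNA or haem deficiency phosphorylate the translation factor eIF2. General protein synthesis then drops, while the ATF4 mRNA is translated more, because short reading frames ahead of its coding sequence otherwise keep ribosomes away. ATF4 pairs with C/EBP proteins on a composite DNA element and switches on genes of amino acid supply, redox balance and, in prolonged stress, cell death. Since ATF4 is controlled largely through translation, its mRNA level is not a measure of its protein.

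Sequencing gave 21552098 counts for control and 23016646 for lncPSCA. No row was matched to lncPSCA itself. PSCA, the coding gene of that name, had 22 and 28699 reads. The counts cannot tell whether these reads came from the PSCA gene or from the transfected plasmid. HGC-27 is labelled a gastric adenocarcinoma line, but gastric glandular markers were near 0: none of 9 reached a mean of 1 CPM (counts-per-million, scaled to library size), and 5 of them, TFF1, TFF2, GKN1, GKN2 and CLDN18, had no reads. Of 7 epithelial markers 4 were measured, with sums over the list of 9.81 and 11.9 CPM: KRT8 had 66 and 58 reads and CLDN7 64 and 148, while EPCAM had 7 in each library and KRT18 4 and 0. Of 5 mesenchymal markers 4 were measured, with sums of 3761 and 3738 CPM, most of it VIM (2601 and 2594 CPM) and COL1A1, while CDH2 had 4 and 6 reads. CLDN7 (2.08-fold) and FN1 (2.35-fold) of these lists met the size rule given below for a higher gene, and their part in other results was not tested. With 1 library a group the conditions cannot be tested against each other, so the text gives no p-values, and how far replicate cultures would spread is unknown. Each fold carries a 95% counting interval (Clopper-Pearson), which covers counting error only.

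The DNA element bound by ATF4 with a C/EBP partner has the core TGATGNAA, where N is any base. It was searched on both strands of RefSeq promoter windows of 300 bases (250 before and 50 after a transcription start, GRCh38.p14), of which 18 belong to the 10 genes. CHAC1 and CEBPG held it. Among 34 other known ATF4 targets with a window, 15 held it. It occurred in 3.62% of all 35116 windows and, counting any window of a gene, in 299 of 10669 measured genes (2.80%). The sites of both genes are shown with 5 of those targets, so that the shared core and the differing flanks can be compared. These 5 had the largest ratios among the targets whose site had full flanks in a window. The others of that kind had log2 ratios from 0.01 (NARS1) to 0.56 (GARS1). Each site is printed in the orientation of the motif with the 8 matching bases in capitals.
CHAC1, chr15:40953251-40953280, minus strand: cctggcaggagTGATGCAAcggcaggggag
CEBPG, chr19:33374060-33374089, plus strand: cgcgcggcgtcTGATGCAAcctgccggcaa
FGF21, chr19:48755459-48755488, minus strand: ctcctcctcccTGATGCAAtcctggtgttt
SLC1A4, chr2:64989381-64989410, minus strand: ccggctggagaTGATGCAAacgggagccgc
ATF3, chr1:212565205-212565234, plus strand: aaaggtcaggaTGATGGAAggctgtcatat
ASNS, chr7:97872458-97872487, minus strand: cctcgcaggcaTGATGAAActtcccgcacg
JDP2, chr14:75427995-75428024, plus strand: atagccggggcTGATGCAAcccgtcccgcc
The CHAC1 site begins 209 bases upstream of its RefSeq start and the CEBPG site 42 bases upstream of the second of its 2 starts. All 250 bases before the CHAC1 start overlap annotated GENCODE exons, so the CHAC1 site lies in exon sequence. The CEBPG site overlaps no such exon. CHAC1, CEBPG, FGF21, SLC1A4 and JDP2 share TGATGCAA, while the sites of ATF3 and ASNS differ at the variable base.

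The windows of DDIT4 and SESN2 did not contain TGATGNAA, which says only that these letters are absent from that stretch. Their upstream bases are shown because these 2 genes, with CHAC1, had the largest ratios of the 10. Capitals mark the CCAAT box and the hypoxia-response cores ACGTG and GCGTG, on either strand. No exon of GENCODE release 29 overlaps the bases printed.
DDIT4, chr10:72273674-72273919, plus strand: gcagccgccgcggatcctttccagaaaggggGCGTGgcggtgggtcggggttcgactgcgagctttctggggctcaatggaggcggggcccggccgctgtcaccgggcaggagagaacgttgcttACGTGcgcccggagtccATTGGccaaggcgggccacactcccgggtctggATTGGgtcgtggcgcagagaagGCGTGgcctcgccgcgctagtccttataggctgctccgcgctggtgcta
SESN2, chr1:28259268-28259517, plus strand: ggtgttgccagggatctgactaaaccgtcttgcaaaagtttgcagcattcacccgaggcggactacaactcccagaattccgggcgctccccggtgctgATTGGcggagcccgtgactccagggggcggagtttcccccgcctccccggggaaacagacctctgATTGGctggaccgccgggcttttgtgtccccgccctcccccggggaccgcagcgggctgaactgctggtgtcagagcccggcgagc
Both stretches hold CCAAT boxes in the reverse orientation (ATTGG). Only the DDIT4 stretch holds the hypoxia cores. CCAAT occurred in windows of 6 of the 10 genes and of 43.1% of measured genes, GCGTG in 8 of the 10 and 58.4%, and ACGTG in 2 of the 10 (ATF4 and DDIT4) and 32.2%. TATAAA was found for ATF4, CEBPB and PPP1R15A, 3 of the 10, against 8.19% of measured genes. The interferon-stimulated response element, searched as a pair of GAAA boxes 2 bases apart, was present for 1 of the 10, ATF5, against 3.88% of measured genes and 16 of 19 interferon-stimulated genes with a window.

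CHAC1, DDIT4 and SESN2 were more abundant in the lncPSCA library by 6.94-, 5.81- and 3.51-fold, and the other 7 genes differed by less than 2-fold. A gene is called higher or lower here if its mean was at least 1 CPM, its ratio at least 2-fold on a scale with a pseudocount of 1, and its counting interval wholly beyond 1.5-fold. By this rule 3 of the 10 genes were higher, none was lower and 7 were neither. The share called higher was 3.02% of all 15440 measured genes, and 0.596% were called lower. All 10 genes passed the CPM minimum in both libraries. Their median log2 ratio of lncPSCA over control was 0.59, against -0.02 for all measured genes, and 9 of the 10 lay above 0, against 48.1% of all measured genes. The exception was ATF5.

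**Figure D1:**
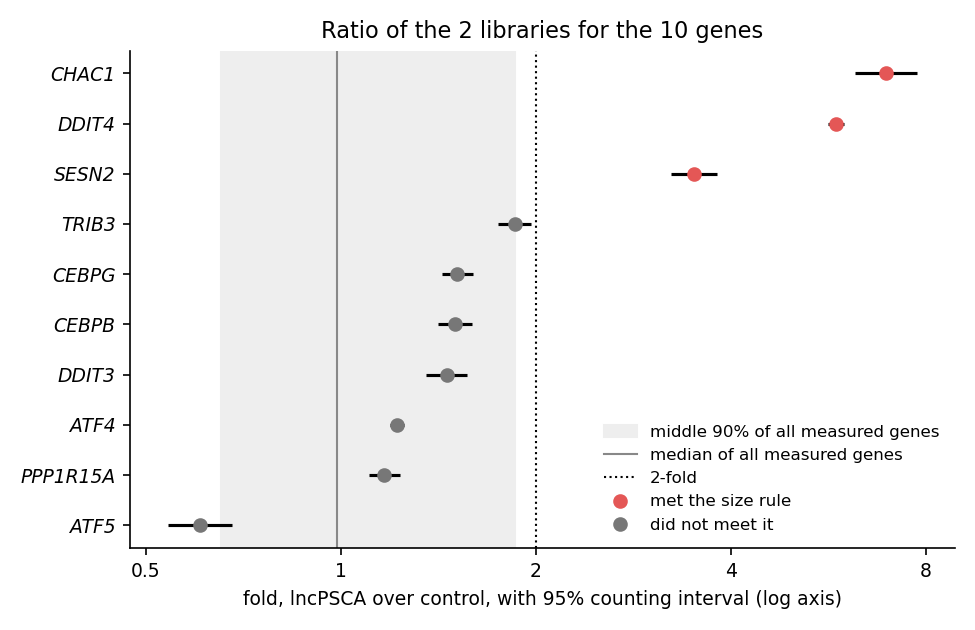
Fold of lncPSCA over control for each of the 10 genes on a log axis, with 95% counting intervals as bars. The grey band holds the middle 90% of all measured genes (0.653- to 1.86-fold), and CHAC1, DDIT4 and SESN2 lie above it, ATF5 below it.

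ATF4 itself (ENSG00000128272, chromosome 22), the central bZIP transcription factor of the pathway, had 10811 control reads and 14701 lncPSCA reads. This corresponds to 512 and 625 CPM, a fold of 1.22 (1.19 to 1.25). Its ratio exceeded that of 75.3% of measured genes. The processed copies of ATF4 in the genome drew few reads: ATF4P3 had 9 and 13, ATF4P4 0 and 3, and ATF4P1 and ATF4P2 none.

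The bZIP partners of ATF4 had somewhat larger ratios than ATF4 and resembled each other. CEBPG (ENSG00000153879, chromosome 19), a small C/EBP protein without an activation domain that pairs with ATF4, had 2031 and 3424 reads, or 96.3 and 146 CPM. Its fold was 1.51 (1.43 to 1.60). CEBPB (ENSG00000172216, chromosome 20), which takes part in stress and inflammatory gene expression, had 1722 and 2875 reads, or 81.6 and 122 CPM, a fold of 1.498 (1.41 to 1.59). The intervals of CEBPG and CEBPB overlapped each other and lay wholly above that of ATF4.

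DDIT3 (ENSG00000175197, chromosome 12), the pro-apoptotic factor CHOP, had 1202 reads in control and 1951 in lncPSCA. The corresponding levels were 57.0 and 83.0 CPM, and the fold was 1.46 (1.35 to 1.57), close to those of the C/EBP genes and short of the size rule. In GENCODE release 29, 27.2% of its exon bases overlap MARS1, a tRNA synthetase gene on the opposite strand. MARS1, itself an ATF4 target, had 5442 and 7756 reads, a fold of 1.28 (1.24 to 1.32). Whether counting used the strand is unknown, so reads over this overlap cannot be assigned to either gene with certainty.

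ATF5 (ENSG00000169136, chromosome 19), a relative of ATF4 that is also controlled through translation and is tied to mitochondrial stress, went the other way. It had 749 reads in control and 506 in lncPSCA, or 35.5 and 21.5 CPM. The fold was 0.606 (0.541 to 0.680), lower than that of 97.0% of measured genes, but it did not reach the 2-fold limit. NUP62, a nuclear pore gene that overlaps 21.2% of the ATF5 exon bases on the opposite strand, had 2478 and 2499 reads, a fold of 0.905 (0.856 to 0.957).

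The feedback regulators were split. PPP1R15A (ENSG00000087074, chromosome 19), known as GADD34, brings protein phosphatase 1 to eIF2 and so ends the response. It had 2282 and 2966 reads, or 108 and 126 CPM, a fold of 1.17 (1.10 to 1.23), the ratio nearest to 1 among the 10 genes. TRIB3 (ENSG00000101255, chromosome 20) encodes a pseudokinase that binds ATF4 and restrains it, and also binds AKT. It had 1682 and 3478 reads, or 79.7 and 148 CPM. The TRIB3 fold of 1.86 (1.75 to 1.97) fell just short of 2-fold. With log2 ratios centred along mean expression or along transcript length TRIB3 met the rule, with log2 ratios of 1.01 and 1.03 in place of 0.89.

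CHAC1 (ENSG00000128965, chromosome 15), which degrades glutathione, had the largest ratio of the 10. It had 365 reads in control and 2823 in lncPSCA, or 17.3 and 120 CPM. Its fold of 6.94 (6.22 to 7.76) was the 76th largest log2 ratio of the measured genes. In the control library CHAC1 was the lowest of the 10 per length of exon sequence, and in the lncPSCA library it was the fifth.

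DDIT4 (ENSG00000168209, chromosome 10), also called REDD1, restrains mTORC1, the growth-promoting kinase complex, through the TSC proteins. It had 5331 reads in control and 34528 in lncPSCA, or 253 and 1469 CPM. The fold was 5.81 (5.65 to 5.98), the 89th largest log2 ratio, and the gain of 1216 CPM was the fifth largest of all measured genes. The antisense gene DDIT4-AS1, whose exon bases all lie within DDIT4 exons on the other strand, had 3445 and 22249 reads, a fold of 5.80 (5.59 to 6.01). DDIT4-AS1 covers 41.2% of the DDIT4 exon bases, and without a known strand setting the reads of this pair cannot be told apart.

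SESN2 (ENSG00000130766, chromosome 1), a leucine sensor that also restrains mTORC1 and is a p53 target, had 740 reads in control and 2893 in lncPSCA. These are 35.1 and 123 CPM, and the fold was 3.51 (3.24 to 3.81), the 141st largest log2 ratio. SESN2 no longer met the rule if a coefficient of variation of 0.4 between cultures was assumed, while CHAC1 and DDIT4 did.

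Divided by the length of each gene's exon sequence, which allows levels of different genes to be compared, the order of the 10 genes differed between the libraries. In control, ATF4 led at 204 CPM per kilobase and DDIT4 followed at 123. In lncPSCA, DDIT4 led at 714 and ATF4 followed at 249, so that the DDIT4 level was 0.602 times that of ATF4 in control and 2.87 times in lncPSCA. DDIT3 and CEBPB came next in both libraries, at 43.6 and 41.7 in control and 63.5 and 62.5 in lncPSCA, and within each library their counting intervals overlapped. TRIB3 and CEBPG (23.2 and 21.8) also overlapped in control, as did CEBPB and CHAC1 (62.5 and 58.3) and TRIB3 and PPP1R15A (43.1 and 40.8) in lncPSCA. Taking the counts as given, all other neighbours in either order differed beyond counting error. The DDIT4 levels leave out the 3445 control and 22249 lncPSCA reads counted to DDIT4-AS1, which cannot be told apart from DDIT4 reads. The distance of DDIT4 from ATF4 in either library is therefore uncertain. ATF5 was eighth in control at 12.02 and last in lncPSCA at 7.29.

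**Figure D2:**
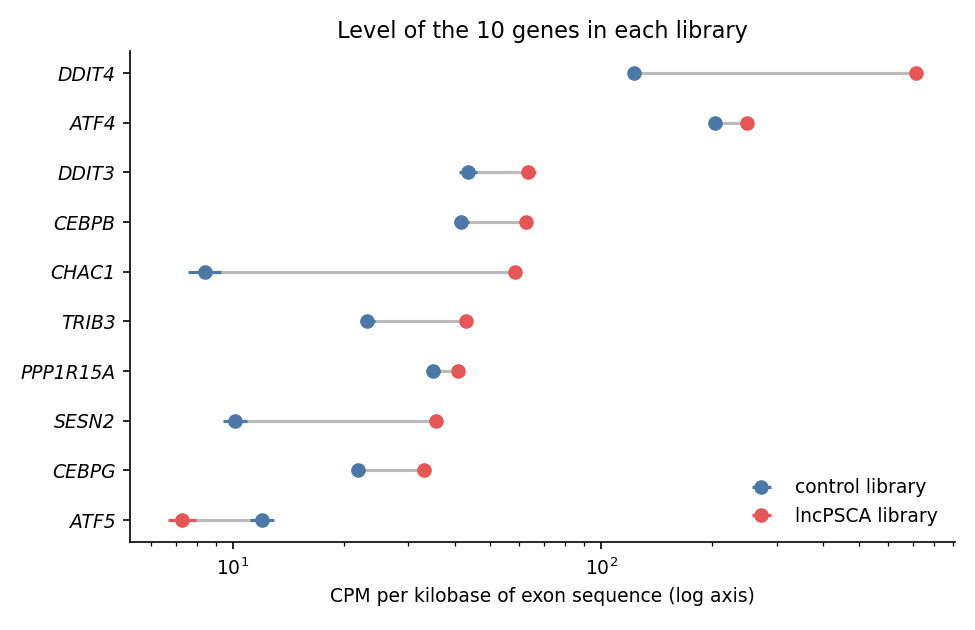
Level of each of the 10 genes in the control and lncPSCA libraries, in CPM per kilobase of exon sequence on a log axis, with 95% counting intervals mostly hidden by the points. DDIT4 passes ATF4 in the lncPSCA library, CHAC1 moves from 8.41 to 58.3, and ATF5 alone is lower. DDIT4 is drawn without the reads counted to DDIT4-AS1.

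Summed over the 10 genes, the level went from 1276 CPM in control to 2984 CPM, a fold of 2.34. DDIT4 made up 19.8% of the sum in control and 49.2% in lncPSCA, and ATF4 40.2% and 21.0%. These shares also leave out the reads counted to DDIT4-AS1. Without DDIT4 the sums of the other 9 were 1023 and 1515 CPM, a fold of 1.48.

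Ratios across the whole table also depended on abundance and transcript length. When genes with a known length were ordered by it and cut into 10 groups, the median log2 ratio was -0.14 in the second shortest group and 0.22 in the longest. The 10 genes have exon sequences of 1307 (DDIT3) to 4411 (CEBPG) bases and lie in groups with medians of -0.14 to -0.07. In groups cut by mean CPM instead, those holding the 10 genes had medians from -0.15 (ATF4 and DDIT4) to -0.03 (ATF5). After centring along length, the median of the 10 genes was 0.71, and 4 of the 10 were higher.

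**Figure D3:**
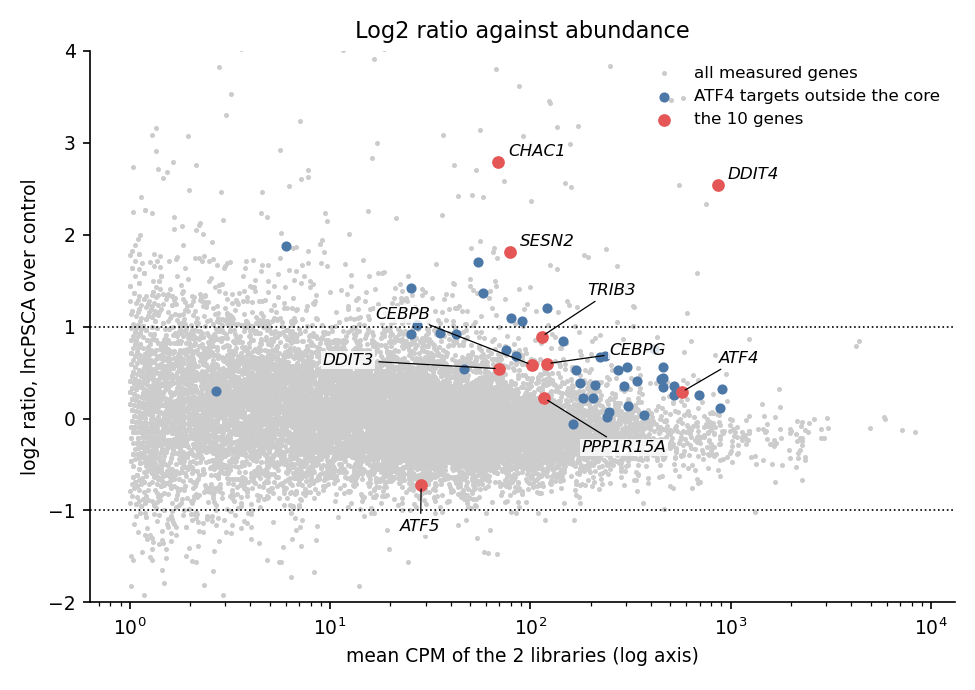
Log2 ratio of lncPSCA over control against mean CPM (log axis) for all measured genes, with ATF4 targets outside the core and the 10 genes on top; dotted lines mark 2-fold, and 57 genes fall outside the vertical range. CHAC1, DDIT4 and SESN2 lie above the upper dotted line, TRIB3 just below it and ATF5 below 0.

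Known ATF4 target genes outside the core were nearly all above 0, mostly by small amounts. Of 42 measured targets, 8 were higher, none was lower and 34 were neither, and 41 had a log2 ratio above 0, with a median of 0.53. The largest ratios belonged to FGF21, a stress hormone, with 54 and 224 reads (3.72-fold, 2.75 to 5.11), and ADM2, a secreted peptide gene, with 541 and 1971 reads (3.27-fold, 2.97 to 3.60). SLC1A4, a neutral amino acid transporter, followed at 2.67-fold (2.34 to 3.06) and SLC7A11, the cystine transporter, at 2.58-fold (2.37 to 2.82). The other 4 were STC2, SLC6A9, ATF3 and GDF15, at 2.31-, 2.13-, 2.08- and 2.03-fold, and are named after their values were seen. If cultures were assumed to vary with a coefficient of 0.2, 3 of the 42 met the rule, and with 0.4 none did.

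Split by function after the values were seen, these targets differed in size of ratio. All 5 secreted factors (STC2, FGF21, GDF15, VEGFA and ADM2) lay above 0 with a median log2 ratio of 1.20, and 4 were higher. The 8 measured amino acid transporters had a median of 0.62, and 3 were higher. The 10 enzymes of amino acid synthesis and one-carbon metabolism had a median of 0.44 and none was higher; ASNS, asparagine synthetase and a classical ATF4 target, had 3809 and 6806 reads, a fold of 1.60 (1.54 to 1.67). The 11 aminoacyl-tRNA synthetases had a median of 0.36, from 0.01 for NARS1 to 0.76 for WARS1, and none was higher. The 15 targets with TGATGNAA in a promoter window had a median of 0.41. The 18 measured targets with a window but without it had 0.60. This split is mixed with function. The aminoacyl-tRNA synthetases AARS1, CARS1, GARS1, MARS1, NARS1, TARS1 and IARS1 hold the motif, and so do FGF21 (1.88) and SLC1A4 (1.42). The part of function in the split was not tested.

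Upstream of ATF4, the eIF2 kinases differed from each other. EIF2AK2, or PKR, which senses double-stranded RNA and is itself induced by interferon, had 2179 reads in control and 8751 in lncPSCA, a fold of 3.60 (3.44 to 3.78). The kinases that sense other stresses were neither higher nor lower: EIF2AK1 (HRI, haem) was at 329 and 328 CPM, EIF2AK4 (GCN2, amino acids) at 59.1 and 63.8, and EIF2AK3 (PERK, endoplasmic reticulum) at 18.2 and 21.9. EIF2S1, which encodes the phosphorylated subunit of eIF2, had levels of 211 and 139 CPM and a fold of 0.658 (0.629 to 0.688). All 5 eIF2B subunits, the exchange factor that phosphorylated eIF2 blocks, had folds below 1, from 0.783 (EIF2B3 and EIF2B5) to 0.927 (EIF2B4). Their log2 ratios were -0.35 to -0.11, while all measured genes of similar abundance had medians of -0.13 to -0.10. Of the 12 genes of this list 1, EIF2AK2, was higher and none lower, with a median log2 ratio of -0.12. Centred along mean expression, the list median was 0.0080. The genes of this list other than EIF2AK2 are named after their values were seen, and phosphorylation of eIF2 was not measured.

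EIF2AK2 belongs to a far larger difference between these libraries. Of 25 measured interferon-stimulated genes, 24 were higher, with a median log2 ratio of 4.80, and their summed level was 723 CPM in control and 10833 CPM in lncPSCA. The part of this interferon difference in the ratios of the 10 genes was not tested.

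The phosphatase that reverses eIF2 phosphorylation showed no gene past the rule. PPP1CA and PPP1CC, catalytic subunits, were at 257 and 233 CPM and at 185 and 147 CPM, and PPP1R15B, the constitutive partner of PPP1R15A, was at 102 and 133 CPM. The median of the 5 genes was -0.12.

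The other arms of the unfolded protein response were close to even as a list. None of 20 measured genes of the ATF6 and XBP1 arms was higher or lower, and 7 lay above 0, with a median log2 ratio of -0.09. The chaperones CALR and CANX were at 1295 and 1182 CPM and at 1250 and 1102 CPM. HSPA5, the main chaperone of the endoplasmic reticulum, had 733 and 641 CPM and a fold of 0.874 (0.854 to 0.894). The largest ratio was that of HERPUD1, a gene of protein degradation at the endoplasmic reticulum, at 1.63-fold (1.52 to 1.76). The next largest was that of XBP1 itself, at 165 and 239 CPM. Its fold of 1.45 (1.39 to 1.51) was near that of DDIT3 (1.46). HSPA5, HERPUD1 and XBP1 are named after their values were seen.

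Among genes associated with CHOP in cell death and redox control, none of 10 measured members was higher or lower, and the median was 0.18. This list holds TRIB3 and PPP1R15A, and without them the median was 0.03. PMAIP1 and BBC3, BCL2-family death genes that also answer to p53, were just short of the limit. PMAIP1 was at 46.6 and 93.2 CPM and BBC3 at 6.97 and 13.5 CPM, the latter a fold of 1.94 (1.59 to 2.37). The death receptor TNFRSF10B, a known CHOP target, was at 96.8 and 106 CPM, and ERO1A, an oxidase of disulfide formation, at 47.3 and 44.9 CPM. These 4 genes are named after their values were seen, and the count of higher genes in this list went from 0 to between 1 and 3 under DESeq2 size factors, total counts and either centring.

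**Figure D4:**
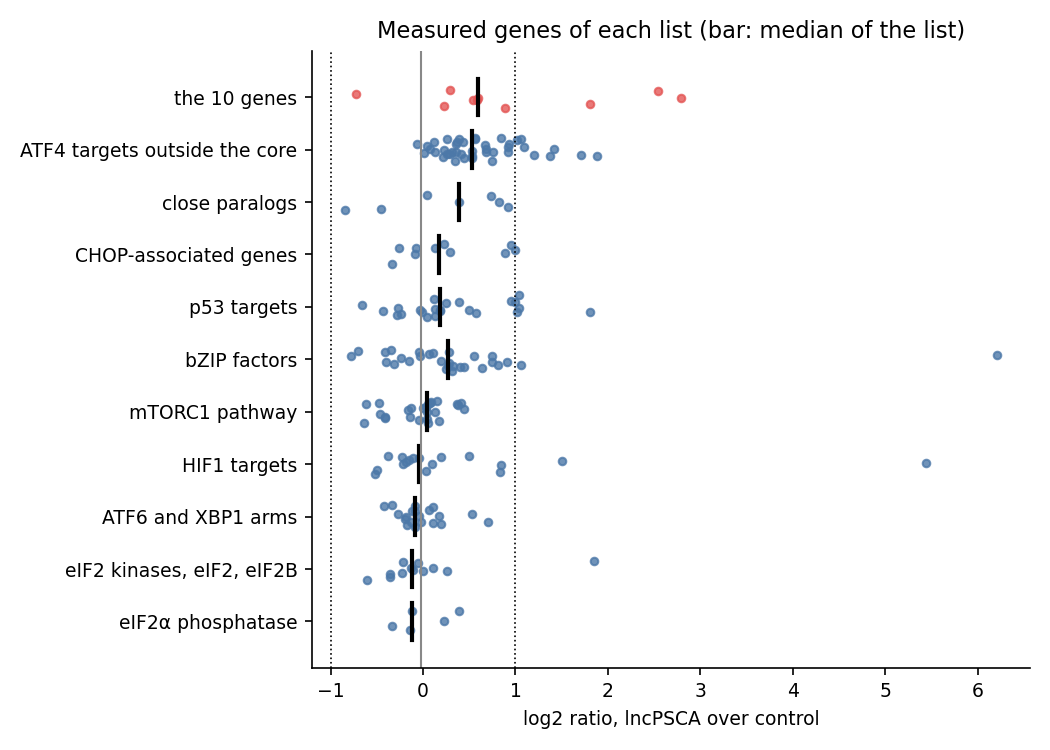
Log2 ratio of lncPSCA over control for the measured genes of the lists drawn. A black bar marks the list median, a grey line the median of all measured genes, and dotted lines 2-fold. The interferon-stimulated genes (median 4.80) and the cell type markers are not drawn. The 10 genes (median 0.59) and the ATF4 targets outside the core (0.53) lie to the right, while the ATF6 and XBP1 arms (-0.09) and the eIF2 list (-0.12) centre near 0.

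None of the 7 close paralogs of the effectors and feedback genes met the rule, and their folds ran from below 1 (CHAC2, TRIB2) to 1.89 (SESN3). CHAC2, which degrades glutathione like CHAC1, had 759 and 470 reads, a fold of 0.556 (0.494 to 0.624), against 6.94 for CHAC1. SESN1, a sestrin under p53 control, had 125 and 144 reads (1.03-fold, 0.808 to 1.32), and SESN3 369 and 778 reads (1.89-fold, 1.67 to 2.15), against 3.51 for SESN2. DDIT4L had 401 and 743 reads, a fold of 1.66 (1.47 to 1.88). TRIB1 was at 1.76-fold (1.66 to 1.87), with an interval overlapping that of TRIB3, and TRIB2 at 0.732-fold (0.624 to 0.858). PPP1R15B was at 1.31-fold (1.24 to 1.38), against 1.17 for PPP1R15A.

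Of 29 measured bZIP relatives and possible dimer partners of the core factors, 2 were higher and none lower, with a median of 0.27. These were BATF2, an interferon-induced factor with 14 and 1230 reads (78.8-fold, 46.8 to 145), and ATF3, a target and partner of ATF4, with 1241 and 2883 reads (2.08-fold, 1.95 to 2.23). At an assumed coefficient of variation between cultures of 0.2, only BATF2 met the rule.

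DDIT4 and SESN2 also answer to hypoxia and p53, and they act on mTORC1. Transcript levels of genes of those pathways were therefore read out as well. Of 17 measured hypoxia targets, CA9 (2 and 141 reads, a ratio of 63.3, 17.2 to 528) and PFKFB4 (2.85-fold, 2.23 to 3.67) were higher, none was lower, and the median was -0.05. Of 23 measured p53 targets, SESN2, CDKN1A, the cell cycle inhibitor p21 (2.06-fold, 1.80 to 2.36), and GDF15 were higher. None was lower, and the median was 0.18. Without SESN2, 2 of 22 were higher and the median was 0.16. GDF15 is also counted among the ATF4 targets above. At an assumed variation of 0.2 between cultures, 1 p53 target met the rule. None of 25 mTORC1 pathway genes was higher or lower, with a median of 0.05. MTOR was at 167 and 173 CPM. EIF4EBP1, a translational repressor that mTORC1 inactivates and ATF4 induces, was at 183 and 236 CPM. These are mRNA levels of pathway components and regulators, and mTORC1 activity was not measured.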

How the data were processed

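RNA-seq gene counts of 2 libraries, 1 per group, were analysed. The deposited table holds raw counts: whole numbers per Ensembl gene, with different totals per column. Per the submitters' processing notes, TopHat2, HTSeq and hg19 were used. Versions, annotation release, strand setting and handling of multiply mapped reads were not given in the sources used. Symbols matched 52181 identifiers (81.9%), and unmatched rows stayed in the totals. Every row names a gene.

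Libraries were scaled by TMM (edgeR 4.0.16; factors 0.979 and 1.02), CPM was computed from the scaled sizes, and log2 ratios used a pseudocount of 1 scaled to library size. Folds are CPM ratios without it. Reads carry no molecular identifiers, so counting intervals can be too narrow. Exon lengths and overlaps come from GENCODE release 29 (GRCh38), matched by identifier and covering 97.1% of measured genes. Promoter sequences are from RefSeq (GRCh38.p14). The size rule was tested on simulated data that held counting error only, so that test does not cover spread between cultures. The alternatives were scaling by upper quartile, by total counts or by DESeq2 1.42.0 size factors, pseudocounts of 0.5 and 5, centring by a running median over 501 genes, assumed coefficients of variation of 0.2 and 0.4, and CPM minimums of 0 and 5. The 10 genes and the lists were chosen with earlier results of these data known. The naming rule took, per list, up to 4 genes past the size rule, by largest log2 ratio, or the 2 most abundant where none did, and all close paralogs. It was not applied to the interferon list, whose genes are only counted, and every other gene named was chosen after its values were seen. No likeness of pattern can be computed over 2 libraries.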

Additional observations from a re-analysis of the deposited data

How the results depend on the processing

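Of 90 alternative values for the 10 genes, 87 kept their direction and their side of the size rule, and no direction changed. Part of this was fixed by construction. The assumed coefficients of variation widen only the interval, so they could not change a direction, and the other scalings shift all genes alike. TRIB3 met the rule when centred along mean expression (1.01) or length (1.03), and SESN2, at an unchanged log2 ratio of 1.81, did not with an assumed coefficient of variation of 0.4. The number of higher genes among the 10 was between 2 and 4, and the median log2 ratio between 0.57 and 0.72. Over all genes, 217 were higher and 27 lower with an assumed coefficient of 0.2, 107 and 5 with 0.4, and 284 and 46 with a CPM minimum of 5. Without a minimum, 150 were lower. With coefficients of 0.2 and 0.4, the higher ATF4 targets numbered 3 and 0, p53 targets 1 and 0, and bZIP genes 1 and 1. At 0.4, EIF2AK2 dropped out (0 of its list). The count of higher hypoxia targets was 1 at 0.4, CA9, and 1 with a CPM minimum of 5, PFKFB4, since CA9 had a mean of 3.05 CPM. Higher CHOP-associated genes numbered 1 under DESeq2 size factors, 2 under total counts and along mean expression, and 3 along length, and higher p53 targets 5 under total counts and along length. Centring along mean expression turned the medians of the eIF2 list (0.0080), the phosphatase list (0.0036), the ATF6 and XBP1 arms (0.019) and the hypoxia targets (0.0099), which was 0.016 under total counts. Centring along length turned the mTORC1 median (-0.11). The interferon median was 4.57 with a pseudocount of 5 and 5.08 with a CPM minimum of 5. The cause of these differences was not tested beyond what each setting changes by construction. A fold near 2 cannot be placed firmly on either side of the rule. Medians were counted as unmoved within 0.2. No paired analysis was possible because each group has 1 library.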

Other observations

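The ATF4 and C/EBP core TGATGNAA can also be read across the whole table. Of 299 measured genes with it in a RefSeq promoter window, 21 were higher (7.02%), 1 was lower and the median log2 ratio was 0.10, while of 10370 with a window but without it 291 were higher (2.81%), 49 were lower and the median was -0.03. Leaving out the 10 core genes and the listed ATF4 targets, 282 genes remained, of which 17 were higher (6.03%), with a median of 0.07. Part of this group also holds the interferon-stimulated response element: 33 of the 282 do, with 4 higher (12.1%). The 249 that do not had 13 higher (5.22%), 1 lower and a median of 0.05, against 2.37% higher among the 9989 genes with neither motif. Genes with the interferon element had the largest such share, 58 of 414 (14.01%). A raised share was not particular to these 2 motifs. Of 874 genes with TATAAA, 41 were higher (4.69%), against 2.77% of those without it. For ACGTG and GCGTG the share was smaller with the motif (2.36% and 2.50%) than without it (3.20% and 3.51%). These shares describe 2 libraries and were not tested. The windows cover 10669 of the measured genes, and abundance and transcript length were not matched.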
